A study of Mus musculus with 8 samples.

Results

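The enzymes that break down amino acids and the urea cycle that disposes of their nitrogen are among the most abundant messages of the liver, and their levels were followed here over age and with loss of Sirt1. A list of 42 genes was used, and a gene was read by the probe set that carries its symbol alone and has the highest mean log2 signal over the 8 arrays. That gave a probe set for 40 of the 42 genes, out of 18193 genes with such a probe set in the whole series. Gls2 and Sds were not analysed here. All 40 genes passed the filter on low signal, so each of them was tested.

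Whole liver RNA was measured on 8 Affymetrix Mouse Genome 430 2.0 arrays, with 2 arrays in each of 4 groups: wild-type (WT) mice of 3, 12 and 19 months, and 3-month-old mice homozygous for a null allele of Sirt1 (MT). Sirt1 is a deacetylase that uses NAD+, and the allele is germline, so it is lost in every cell of the MT mice and not in the liver alone. All mice came from a mixed 129, FVB and Black Swiss background, and most homozygotes of this allele die before birth, so the MT mice are survivors. The labels name no treatment. The study speaks of more mice in each group than there are arrays, while its methods give as many samples as arrays. It is not settled here if an array held the RNA of a single mouse, so p-values rest on the spread between arrays, part of which may be technical. Values are MAS5 signals, a brightness per probe set with no unit, and differences are given as log2 differences with their standard error from limma, where 1 means a doubling. A gene was called at a Benjamini-Hochberg adjusted p under 0.05 over the 22519 probe sets tested.

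Amino acids that the liver does not need for protein are stripped of their nitrogen, and the carbon is burned or turned into glucose. Aminotransferases pass the nitrogen on to glutamate and aspartate, the urea cycle binds it into urea in the cells around the portal vein, and glutamine synthetase catches what is left in the cells around the central vein. Sulfur from methionine and cysteine leaves as sulfate or as taurine, which is joined to bile acids. Many of these genes are known to respond to fasting, glucagon and glucocorticoids.

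The Sirt1 probe set read 589 and 539 in WT mice of 3 months and 615 and 713 in MT mice, which differed by 0.23 ± 0.20 on the log2 scale with an adjusted p of 0.674 from limma. The allele lacks inner exons and where the probes lie is not known here, so this signal does not check the genotype. Xist, the RNA of the inactive X, was at or above the 95.2 percentile of probe sets on all 8 arrays and 9 Y-linked probe sets were at or below the 43.1 percentile, whereas the methods describe the mutants as males. Of the 14 hepatocyte markers measured, albumin among them, the summed signal was 719942 to 761976 in WT mice of 3 months and 591859 to 800414 over the other groups. Markers of the kidney tubule, a tissue that shares several of these enzymes, summed to 199 to 340 on the 8 arrays.

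In 34 of the 40 genes, or 85%, the highest array was under 2-fold above the lowest, against 66.0% of all probe sets tested. The median of that ratio was 1.56 for the 40 genes and 1.75 for all tested. The probe sets were bright, with 30 of the 40 above the 95 percentile on every array and none below the 83.4 percentile on any. Of the 23 genes with a mean signal above 10000, 91.3% stayed under 2-fold, with a median ratio of 1.45, and so did 91.5% of the 919 other probe sets of that brightness, with a median of 1.37. The range of these 23 genes was thus no narrower than that of other bright probe sets. The dimmer genes were not set against probe sets of like brightness.

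None of the 40 genes was called by limma in MT mice, where 0.515% of all tested probe sets were called, at 12 months, where 0.0133% were called, or at 19 months, where 0.0355% were called, each against WT mice of 3 months. These comparisons share the same 2 control arrays. At an unadjusted p under 0.05, 2 genes were higher in MT mice (Mat1a and Tat) against 7.28% of all tested, and 5 were lower (Csad, Gldc, Ivd, Kmo and Mccc1) against 6.18%. No gene was higher at 12 months, with 4.01% of all tested, and 3 were lower (Dbt, Glul and Oat) against 4.57%. At 19 months 1 gene was higher (Csad) against 7.18% and 12 of 40, or 30%, were lower against 5.3%. By the methods' t-test, at their threshold of p and fold, 1 gene (Csad) passed in MT mice, 0 at 12 months and 2 (Csad and Got1) at 19 months. Of the 22519 probe sets tested, 890, 502 and 750 passed that threshold in the same comparisons. After Benjamini-Hochberg adjustment of the t-test, 0 of the 40 genes passed in each. A moderated F test for any difference among the 4 groups called 1 of the 40 genes, Csad, against 0.431% of all tested. The median log2 difference of the 40 genes was -0.052 in MT mice, 0.0076 at 12 months and -0.23 at 19 months, against 0.018, -0.0034 and 0.024 over all tested probe sets.

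**Figure D1:**
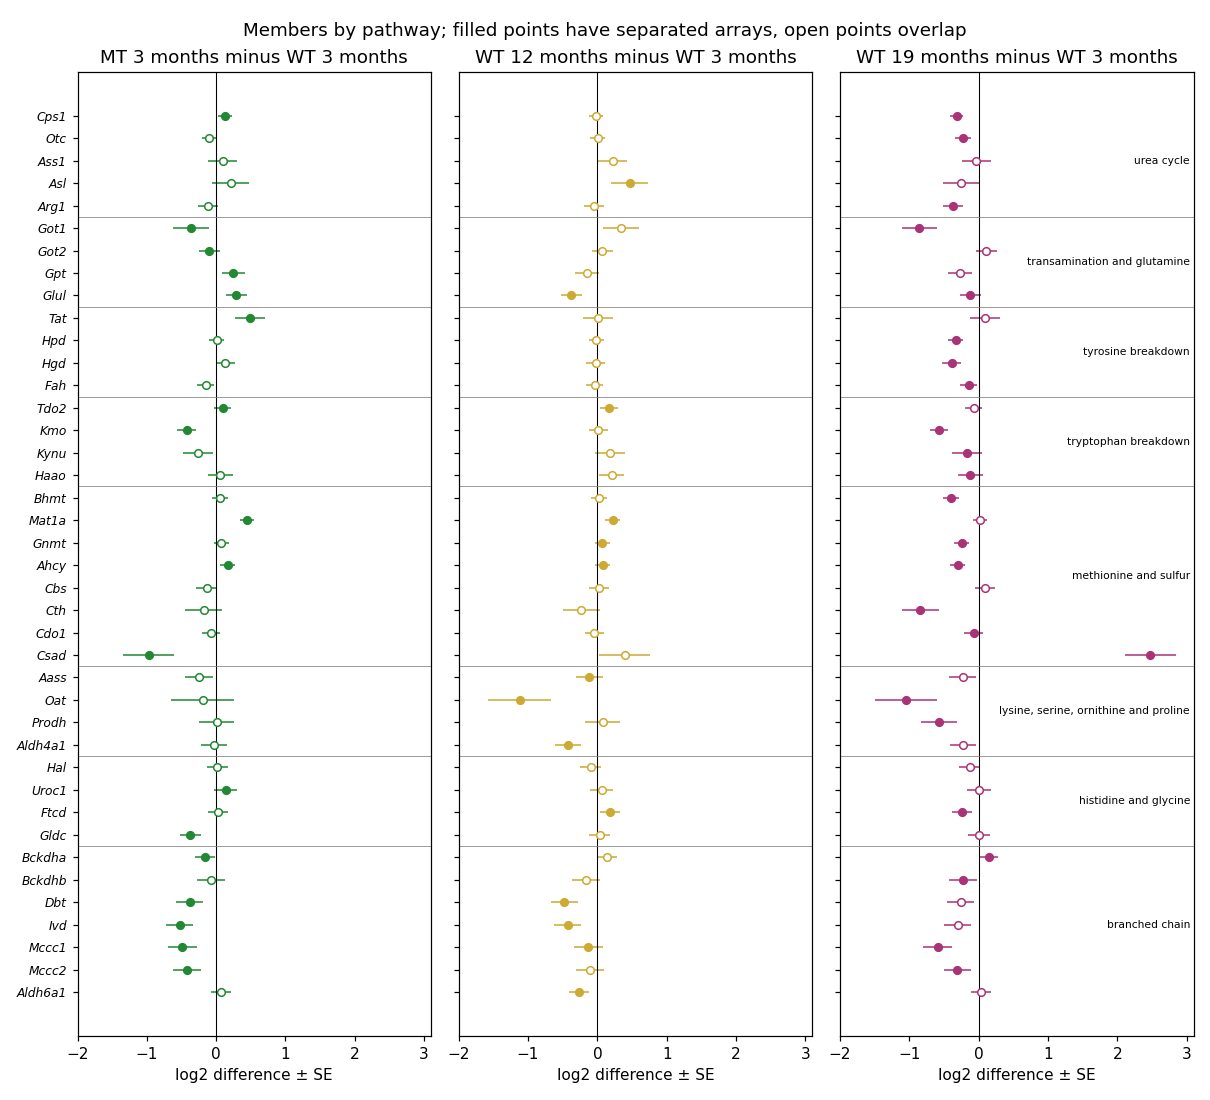
Log2 difference from WT mice of 3 months (points, with standard errors as bars) for the 40 genes in MT mice (left), at 12 months (middle) and at 19 months (right), in order of pathway. Filled points mark genes whose 2 arrays lie beyond both control arrays. At 19 months 31 of the 40 points lie left of 0, and Csad at 2.47 stands apart on the right.

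Csad makes the decarboxylase of cysteine sulfinic acid, the step that commits cysteine sulfur to taurine. Its signals were 1606 and 1519 in WT mice of 3 months, 1409.8 and 2979 at 12 months, 6053 and 12438 at 19 months and 796 and 796 in MT mice. Both MT arrays were below, and both 19-month arrays above, every other array of the series, while the 2 arrays at 12 months lay on either side of the 3-month arrays. The highest array was 15.6-fold above the lowest, a ratio that 0.426% of all tested probe sets exceeded. The F test over the 4 groups gave an adjusted p of 0.0274. Against WT mice of 3 months alone, the log2 difference was -0.97 ± 0.37 in MT mice (adjusted p = 0.291), 0.39 ± 0.37 at 12 months (0.832) and 2.47 ± 0.37 at 19 months (0.0772), so no single one of these passed. The difference at 19 months passed after adjustment in 5 of 18 alternative settings. Among these were a looser threshold and the 2 groups alone (adjusted p = 0.0195). Over the 18 settings its adjusted p reached 0.455. Without single arrays that difference moved between 1.95 and 2.99. The direct comparison of MT mice with WT mice of 19 months, chosen after seeing the data, gave -3.45 ± 0.37, or 10.9-fold lower in MT mice, with an adjusted p of 0.0143. In that comparison 0.275% of all tested probe sets were called, and Csad was the only one of the 40 genes. WT mice of 19 months against those of 12 months differed by 2.08 ± 0.37 in Csad, with an adjusted p of 0.160.

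The F test's call for Csad depended on single arrays and on the variance model. The adjusted p of the F test was 0.0844 and 0.0835 without either array of 3-month-old WT mice, 0.0887 without the second 19-month array, 0.0598 and 0.0642 without either MT array, and 0.190 without the trend of variance on signal. For MT mice against WT mice of 19 months, the call was lost without the second 19-month array and without the second MT array. The log2 differences were then -2.93 and -3.45. The direction of the differences in MT mice and at 19 months was the same in every one of these fits.

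RefSeq lists 2 start sites for Csad on the minus strand of mouse chromosome 15 in the build GRCm38.p6, 16009 bases apart. Csad was read by 1 probe set, and where its probes lie relative to these starts is not known here. The 250 bases before each start are shown, with TGACG, the core of cAMP-responsive elements, in capitals. Csad was taken because it alone of the 40 genes was called by the F test in the main fit. The first lies at chr15:102205053-102205302 and the second at chr15:102189044-102189293, both read 5′ to 3′ toward the start.
Csad, upstream start: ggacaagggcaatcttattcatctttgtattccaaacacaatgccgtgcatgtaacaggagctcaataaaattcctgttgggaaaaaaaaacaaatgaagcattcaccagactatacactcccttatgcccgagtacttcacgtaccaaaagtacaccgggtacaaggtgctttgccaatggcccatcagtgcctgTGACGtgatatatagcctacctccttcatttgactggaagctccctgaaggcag
Csad, downstream start: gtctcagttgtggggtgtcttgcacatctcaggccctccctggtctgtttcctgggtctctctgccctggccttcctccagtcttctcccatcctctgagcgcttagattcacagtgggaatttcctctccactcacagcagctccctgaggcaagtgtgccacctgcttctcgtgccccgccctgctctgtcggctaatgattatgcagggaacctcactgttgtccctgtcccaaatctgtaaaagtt
Searched on both strands for CACGTG (an E-box), TGACG, TTATGTAA (a D-box) and AGGTCA (bound by nuclear receptors), whose matches may share bases at their ends, the first window held 1 match, TGACG at position -54 from the start, and the second held none. The 4 motifs were chosen with results known.

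Of the 42 genes, 31 had such a window in the RefSeq table, 34 windows in all. AGGTCA, in either strand, occurred in 13 of the 34 windows, or 38.2%, and in 14.0% of the 32851 windows of all genes. CACGTG occurred in 3 of the 34 (8.82%) against 6.02% of all, TGACG in 3 (8.82%) against 17.8%, and TTATGTAA in 0 against 0.819%. Of the genes with the smallest p at 19 months described below, Bhmt and Got1 held AGGTCA, and 1 stretch of each is shown with it in capitals, from the minus strand.
Bhmt, chr13:93637798-93637857: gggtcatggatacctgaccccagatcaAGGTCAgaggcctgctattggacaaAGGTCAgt
Got1, chr19:43524817-43524855: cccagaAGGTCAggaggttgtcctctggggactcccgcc
Counted from the start, the first match of the Bhmt stretch begins at -72 and that of Got1 at -244. Such a match is a run of letters and says nothing of whether a factor binds.

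**Figure D2:**
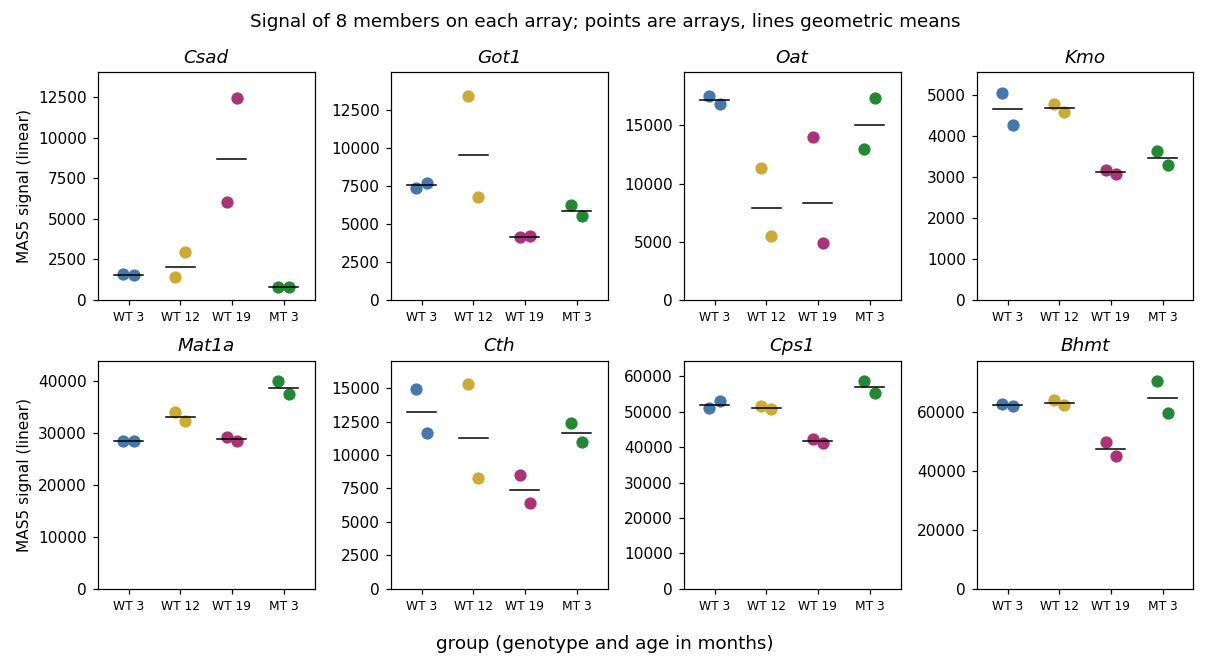
MAS5 signal on a linear axis from 0 for 8 genes on each of the 8 arrays (points) with the geometric mean of each group (line). Csad lies near 796 on both MT arrays and at 6053 and 12438 at 19 months, while Cps1 and Bhmt differ little between groups apart from lower values at 19 months.

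No other enzyme of methionine and sulfur was called. Mat1a, which makes S-adenosylmethionine in adult hepatocytes, had signals of 28509.9 and 28559 in WT mice of 3 months, 34202 and 32284 at 12 months, 29263 and 28474 at 19 months and 40179.9 and 37499 in MT mice. Both MT arrays were above all 6 WT arrays, and Mat1a had the smallest unadjusted p of the 40 genes in MT mice, with a log2 difference of 0.44 ± 0.10 and an adjusted p of 0.102. Bhmt, which turns homocysteine back into methionine with betaine, had signals of 62929.8 and 62050.2 in WT mice of 3 months, 64036 and 62508 at 12 months, 49987 and 45152 at 19 months and 70515 and 59787 in MT mice. Its 2 arrays at 19 months were the lowest of the 8, at -0.40 ± 0.12 against 3-month-old WT mice (adjusted p = 0.254), and the difference was 0.06 in MT mice. Gnmt, the methyltransferase that uses up surplus S-adenosylmethionine, and Ahcy, which splits the product S-adenosylhomocysteine, also had their 2 lowest arrays at 19 months, at 40721 and 39232 against 48028 and 46730.4 at 3 months for Gnmt and 33615 and 29653 against 39883 and 38057 for Ahcy.

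The transsulfuration enzymes that make cysteine from homocysteine differed from each other. Cth, the second of them, had signals of 14966 and 11672 in WT mice of 3 months, 15342 and 8283 at 12 months, 8487 and 6381 at 19 months and 12422 and 10960.1 in MT mice, so that 1 of the 12-month arrays was near the 19-month level and the other above all 3-month arrays. Its difference at 19 months was -0.84 ± 0.27 (adjusted p = 0.279). Cbs, the first of them, ranged over 8859.8 to 12008 on the 8 arrays and its groups overlapped in each comparison with 3-month-old WT mice. Cdo1, which oxidises cysteine to the cysteine sulfinic acid that Csad uses, ranged over 31124 to 38269, with 33903 and 33778 at 19 months against 35727 and 35474 at 3 months. The step before Csad thus varied by 1.23-fold over the series, against the 15.6-fold of Csad itself. Slc6a6, the taurine carrier, had signals of 2709 and 3328 in WT mice of 3 months, 3004 and 2681 at 12 months, 4358 and 3370.4 at 19 months and 3079 and 3133 in MT mice and a difference of 0.35 ± 0.17 at 19 months, with an adjusted p of 0.434.

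All 5 urea cycle genes were below their 3-month level at 19 months, with a median log2 difference of -0.25, and none was called. Cps1, the mitochondrial enzyme that makes carbamoyl phosphate and sets the pace of the cycle, had signals of 51186 and 52951 in WT mice of 3 months, 51524 and 50917 at 12 months, 42210.1 and 41259.7 at 19 months and 58815 and 55357 in MT mice. The 19-month arrays were the lowest, with a difference of -0.32 ± 0.10 (adjusted p = 0.273), and the MT arrays the highest, with 0.13 ± 0.10 (0.618). Arg1, the arginase that releases urea, read 32773 and 37334 at 19 months against 44566 and 45582 at 3 months, and its 2 MT arrays, 48102 and 36227, lay on either side of the control. Otc, which joins carbamoyl phosphate to ornithine, read 34615 and 32592 at 19 months against 38967 and 39701, a difference of -0.23, while another bright Otc probe set gave -0.09. Asl, which splits argininosuccinate, differed 1.78-fold between the 2 MT arrays (13545 and 7598), above the largest of its 3 group differences, 0.47 on the log2 scale at 12 months. Ass1, which makes argininosuccinate, was read here by a dim probe set at 732 to 1141, since a brighter one that carries the symbol of a second gene, Gm5424, as well was left out by the rule. In MT mice the median of the 5 genes was 0.094 and at 12 months 0.0049.

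Among the aminotransferases and glutamine enzymes, Got1 stood apart at 19 months. Got1 makes the cytosolic aspartate aminotransferase, and its signals were 7366 and 7682 in WT mice of 3 months, 13409 and 6737 at 12 months, 4148 and 4179 at 19 months and 6231 and 5501 in MT mice. Both 19-month arrays lay below all 6 others, at -0.85 ± 0.26 (adjusted p = 0.262), and the 2 arrays at 12 months differed 1.99-fold. In a fit of the 2 groups alone, which leaves out the 12-month and MT arrays, the adjusted p was 0.0204. Of 18 alternative settings, that was the only 1 in which this difference passed after adjustment. That fit also called more of all tested probe sets than the main fit, as given below. Got2, its mitochondrial counterpart, ranged over 13274 to 17704 and differed by 0.11 at 19 months, and its other tested probe sets, both dimmer, gave -0.015 and -0.27. Gpt, the alanine aminotransferase, read 8536 and 7206 in MT mice against 7161 and 6073 in WT mice of the same age, a difference of 0.25 ± 0.17. Glul, the glutamine synthetase of the cells around the central vein, had signals of 17585 and 19061 in WT mice of 3 months, 16066 and 12399 at 12 months, 16988 and 16638 at 19 months and 20424 and 24498 in MT mice. Its MT arrays were the 2 highest and its 12-month arrays the 2 lowest, and neither difference passed (0.29 ± 0.15, adjusted p = 0.445; -0.38 ± 0.15, adjusted p = 0.533). A second Glul probe set differed by 0.31 and -0.12.

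In tyrosine breakdown, Tat, the aminotransferase that starts it and a classic target of glucocorticoids and glucagon, had signals of 13922 and 15871 in WT mice of 3 months, 19661 and 11399.5 at 12 months, 16082 and 15598 at 19 months and 20349 and 21283 in MT mice. Both MT arrays were above all WT arrays, at 0.49 ± 0.21 with an adjusted p of 0.368. The next enzymes were lower on both 19-month arrays than on both 3-month arrays: Hpd read 43328 and 40783 against 54473 and 51212, Hgd 18473 and 17017 against 24158 and 22195, and Fah, the last step, 27503 and 24148 against 27620.5 and 29305. None of these passed, and the 3 differed by -0.33, -0.39 and -0.14. A second Hgd probe set gave -0.09 at 19 months.

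In tryptophan breakdown, Kmo makes kynurenine monooxygenase, the branch point toward NAD+ synthesis, and its signals were 5063 and 4281 in WT mice of 3 months, 4789 and 4599 at 12 months, 3176 and 3082 at 19 months and 3644 and 3303 in MT mice. The 2 arrays at 19 months were the lowest and those of MT mice next, with no overlap with the 3- and 12-month WT arrays. The difference was -0.42 ± 0.13 in MT mice (adjusted p = 0.212), 0.01 ± 0.13 at 12 months (0.989) and -0.57 ± 0.13 at 19 months (0.19), and the F test over the 4 groups gave an adjusted p of 0.13. Tdo2, the first enzyme of the pathway, ranged over 28164 to 38932 and differed by 0.17 at 12 and -0.07 at 19 months. Its other 2 probe sets differed by 0.38 and 0.30 at 12 months and by -0.35 and -0.44 at 19 months, so the size depended on the probe set and the sign did not. Kynu and Haao, further down the same path, read 3357 and 3254 and 13317 and 12127 at 19 months, and their 3-month values were 4023 and 3448 and 14188 and 13397.

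Oat, the ornithine aminotransferase that links ornithine to proline and glutamate, had the widest spread after Csad. Its signals were 17509 and 16859 in WT mice of 3 months, 11369 and 5472 at 12 months, 14006 and 4927 at 19 months and 12984 and 17309 in MT mice. All 4 arrays of the 12- and 19-month WT mice were below both 3-month arrays, but the arrays within those groups differed 2.08-fold and 2.84-fold. The difference was -1.12 ± 0.45 at 12 months (adjusted p = 0.533), -1.05 ± 0.45 at 19 months (0.386) and -0.20 ± 0.45 in MT mice (0.899). Without single arrays the 12-month value moved between -1.65 and -0.60. Prodh, the first enzyme of proline breakdown, read 5715 and 4027 at 19 months against 6861 and 7412. Aldh4a1, the next step, read 4314 and 3931 at 12 months against 5563 and 5457, a difference of -0.42 ± 0.19 (adjusted p = 0.59). Aass, which opens lysine breakdown, ranged over 9929 to 14438, with both 12-month arrays below both 3-month arrays.

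In histidine breakdown differences were small. Hal, Uroc1 and Ftcd, which take histidine to glutamate in turn, differed from 3-month-old WT mice by -0.24 to 0.18 in the 3 comparisons. Gldc, the decarboxylase of the glycine cleavage system, had signals of 3807 and 3548 in WT mice of 3 months, 4037 and 3519 at 12 months, 3689 and 3687 at 19 months and 3207 and 2522 in MT mice. Both MT arrays lay below all 6 WT arrays, at -0.37 ± 0.15 with an adjusted p of 0.332, and without single arrays that value moved between -0.54 and -0.20.

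Of the 7 genes of branched chain breakdown, 6 were below the control in MT mice, against 47.7% of all tested probe sets, and 5 of those, against 21.7%, were separated from it, with a median log2 difference of -0.38. Ivd, the dehydrogenase of the leucine path, had signals of 2801 and 3096 in WT mice of 3 months, 2158 and 2228 at 12 months, 2962 and 1926 at 19 months and 1938 and 2152 in MT mice. Its MT arrays were below both 3-month WT arrays, at -0.53 ± 0.20 (adjusted p = 0.282), and so were its 12-month arrays, at -0.43 ± 0.20 (0.597). A second Ivd probe set differed by -0.50 in MT mice and by -0.13 at 12 months. Mccc1 and Mccc2, which make the 2 subunits of the leucine path's carboxylase, read 1727 and 1299.6 and 2542 and 1905 in MT mice against 2114 and 2092 and 2986 and 2918 in WT mice of the same age.

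The complex that commits branched chain acids to oxidation was less uniform. Dbt, its core subunit, had signals of 5569 and 5229 in WT mice of 3 months, 4037 and 3704 at 12 months, 5669 and 3578 at 19 months and 4219 and 4052 in MT mice, with all MT and 12-month arrays below both 3-month arrays, at -0.38 ± 0.20 (adjusted p = 0.436) and -0.48 ± 0.20 (0.544). Its partners Bckdha and Bckdhb differed by -0.17 and -0.08 in MT mice and by 0.15 and -0.16 at 12 months. Aldh6a1, the last enzyme of the valine path, ranged over 12777 to 18935 and differed by 0.07 in MT mice. At 12 months 6 of the 7 genes were below the control against 50.5% of all tested, with a median of -0.16, and at 19 months 5, with a median of -0.26.

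At 19 months 31 of the 40 genes were below their 3-month level, against 47% of all tested probe sets. In 22 of the 40, or 55%, both 19-month arrays lay below both 3-month arrays, against 21.8% of all tested, and in 2 (Bckdha and Csad) both lay above, against 26.4%. In MT mice 10 of 40 were separated lower against 21.7% and 8 higher against 24%, and at 12 months 8 were separated lower against 20.8% and 6 higher against 19.3%. After quantile normalization, 18 of the 40 were separated lower and 7 higher at 19 months, against 23.7% and 23.8% of all tested, and the median was -0.14. Without the second 19-month array the median was -0.099, with 25 of 40 below 0.

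Other features also differed at 19 months. Over the 919 tested probe sets outside the 40 genes with a mean signal above 10000 the median log2 difference was -0.12, and 50.6% of them were separated lower. Among the 40 genes, the 23 above that brightness had a median of -0.23, with 15 separated lower. The 17 dimmer ones had a median of -0.25, against a median of 0.035 over all tested probe sets below that brightness. Of these 17, 7 were separated lower, against 21.8% of all tested probe sets, bright ones included. All 13 hepatocyte markers that are not among the 40 genes were below 0, with a median of -0.21, and 9 of 10 periportal markers, with a median of -0.44, while the 10 pericentral markers split into 5 above and 5 below, with a median of -0.042. All 10 Kupffer and macrophage markers were above 0, with a median of 0.57, and their summed signal was 28115 to 44642 at 19 months against 24228 to 24758 at 3 months. All 5 B and plasma cell markers tested, of 7 listed, were above 0 too, with a median of 2.74. Igha among them, an immunoglobulin heavy chain, was called by limma (adjusted p = 0.00065). The summed signals of the 6 B and plasma cell markers with a probe set were 7641 to 8458 against 1109 to 1418. All 3 neutrophil markers tested, of 6 listed, were above 0, with a median of 1.11 and none called. Of the 3 T and NK cell markers tested, 1 was above 0 and 2 below, with a median of -0.19 and none called. The ratio of 3′ to 5′ signal of the pyruvate carboxylase control, on the log2 scale, was 4.77 to 5.86 at 19 months, 4.54 to 5.10 at 12 months and 3.88 to 4.25 at 3 months. The actin control gave 1.23 to 1.25 at 19, 1.26 to 1.31 at 12 and 1.09 to 1.22 at 3 months. The Gapdh control gave -0.44 to -0.39, -0.46 to -0.34 and -0.59 to -0.51 in the same order. In MT mice the pyruvate carboxylase, actin and Gapdh controls gave 3.88 to 3.93, 0.97 to 1.48 and -0.62 to -0.38. In whole liver, fewer cells of a type and less RNA per cell cannot be told apart, and the part of any of these values in the result was not tested.

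**Figure D3:**
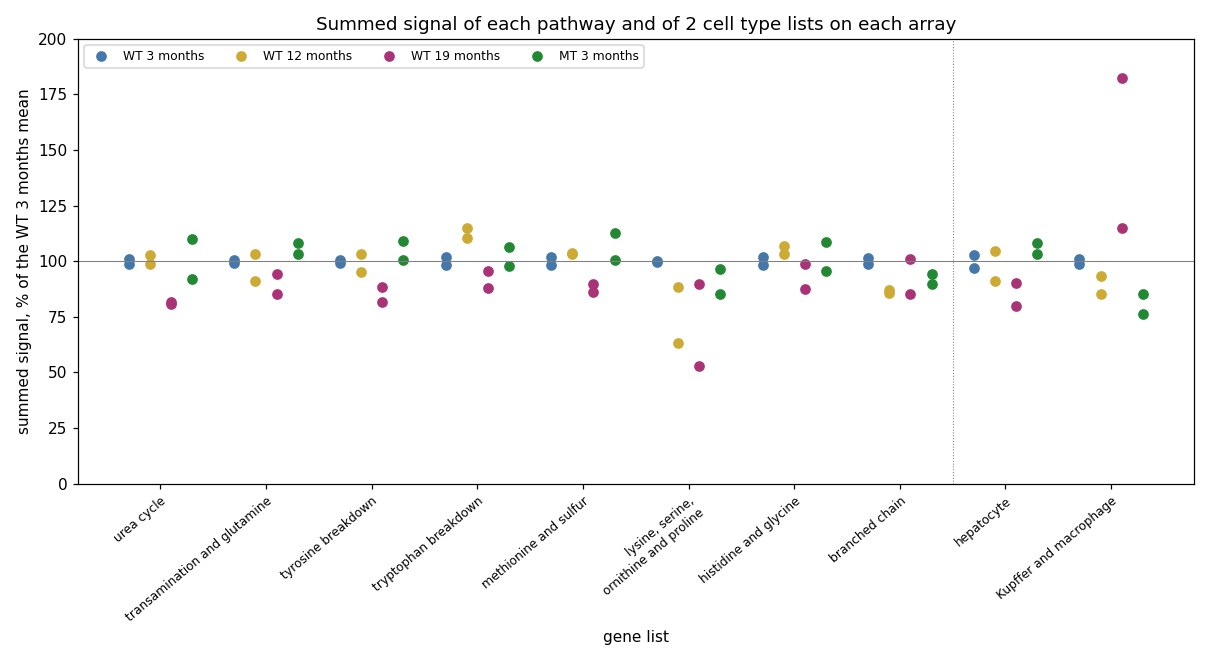
Summed signal of each pathway, and of the hepatocyte and the Kupffer and macrophage markers right of the dotted line, on each array as a percent of the mean of the 2 WT arrays of 3 months. Urea cycle sums at 19 months were 80.8% and 81.7% of the control, hepatocyte sums 79.9% and 90.4%, and Kupffer and macrophage sums 115% and 182%.

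Summed over a pathway, the 19-month arrays were below both control arrays for every list but histidine and glycine (87.3% and 98.7% of the control mean) and branched chain (85.4% and 100.9%). The MT arrays were between 85.3% and 113% of the control mean over the 8 pathways. Such sums weigh bright probe sets most.

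The 2 arrays of a group differed little at 3 months and more in the other groups. The median size of the log2 difference between them over the 40 genes was 0.082 in 3-month-old, 0.20 in 12-month-old and 0.16 in 19-month-old WT mice and 0.20 in MT mice, against 0.19, 0.26, 0.22 and 0.26 over all tested probe sets. The first array was the higher in 25, 26 and 36 of the 40 genes in WT mice of 3, 12 and 19 months, and in 29 in MT mice. The median of the first array minus the second was 0.031, 0.088, 0.12 and 0.18 in that order. Over all tested probe sets it was 0.0083, -0.021, -0.028 and -0.013. Csad went against that order at both 12 and 19 months, where the second array was 2.11-fold and 2.05-fold above the first.

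**Figure D4:**
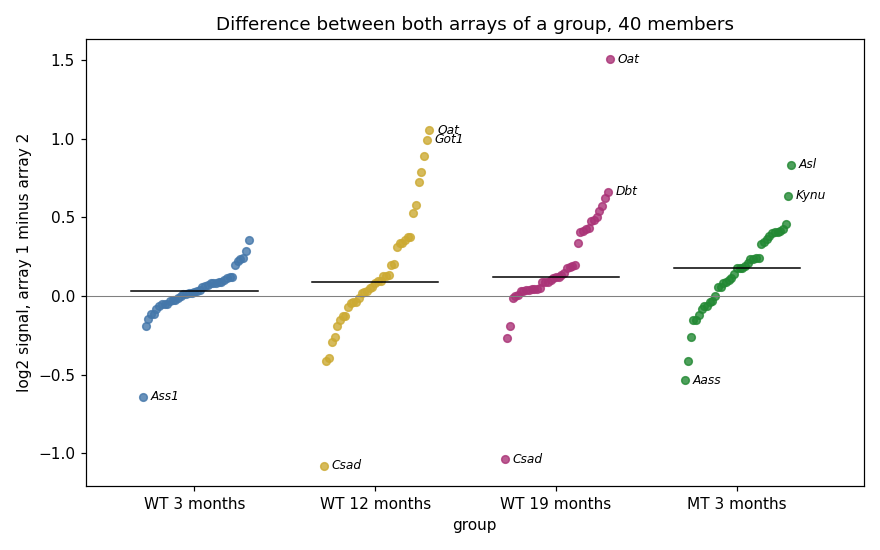
Log2 signal of the first array minus the second array of each group for the 40 genes, sorted within a group, with the median as a line. Spread is narrowest in WT mice of 3 months, where Ass1 is the farthest point, and Oat at 19 months (2.84-fold) is the farthest of all.

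Lists of related genes gave no call in any of the 3 comparisons: 0 of 54 other amino acid enzymes, 0 of 23 amino acid carriers and 0 of 13 regulators of amino acid enzymes by limma. At an unadjusted p under 0.05 the enzymes gave 2 higher and 6 lower in MT mice, 3 and 5 at 12 months and 2 and 9 at 19 months, the carriers 2 and 2, 4 and 5, and 2 and 3, and the regulators 3 and 0, 1 and 1, and 1 and 0. Over all tested probe sets the shares higher and lower at that p were 7.28% and 6.18% in MT mice, 4.01% and 4.57% at 12 months and 7.18% and 5.3% at 19 months. Their median log2 differences at 19 months were -0.17 for the enzymes, -0.18 for the carriers and 0.12 for the regulators.

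In MT mice the smallest p among them was that of Ppm1k, the phosphatase that activates the branched chain complex, with signals of 8236 and 6611 in WT mice of 3 months, 5599 and 4714 at 12 months, 3956 and 4732 at 19 months and 3632 and 4349 in MT mice. All 6 arrays of the other groups were below both 3-month WT arrays, and the difference in MT mice was -0.89 ± 0.17 (adjusted p = 0.0599). Ddo, which oxidises D-aspartate, was at 649 and 819 in MT mice against 265 and 295 in WT mice of the same age, a difference of 1.38 ± 0.27 (0.0645). Gpt2, the mitochondrial alanine aminotransferase, had signals of 4683 and 6829.6 in WT mice of 3 months, 10172 and 10471 at 12 months, 5016 and 4560.4 at 19 months and 11955 and 9087 in MT mice, so that the 12-month and MT arrays were above all others, at 0.87 ± 0.19 (adjusted p = 0.258) and 0.88 ± 0.19 (0.083). Kyat1, a kynurenine aminotransferase, was lower than the control on all 6 other arrays, with differences of -0.79, -0.79 and -0.43 in MT mice, at 12 and at 19 months. Asns, the asparagine synthetase, read 43.2 and 33.3 at 12 months against 147 and 180.4 at 3 months, a difference of -2.10 ± 0.50 (adjusted p = 0.280). These 12-month signals lay below the array medians of 74.5 to 82.8, so the size of that difference is uncertain.

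Among the carriers, Slc7a2, which takes up cationic amino acids, read 7670.2 and 8765 at 19 months against 12321 and 13242 at 3 months, a difference of -0.64 ± 0.16 (adjusted p = 0.217). Slc3a1, the heavy chain of the cystine carrier, was chosen after its values were seen: its signals were 967 and 924 in WT mice of 3 months, 2765 and 1609.9 at 12 months, 1236 and 3071 at 19 months and 458 and 364 in MT mice. The MT arrays were the lowest of the 8, and the 12- and 19-month arrays overlapped. Of the regulators, Hnf4a, a master factor of the hepatocyte, read 10228 and 11044 in WT mice of 3 months and above that on all 6 other arrays, with differences of 0.23 to 0.30 and no call. In the fasting and glucocorticoid list, whose members such as Pck1 and Igfbp1 respond to the same hormones as Tat, 8 of 12 genes were below the control in MT mice, 8 at 12 months and 10 at 19 months, with medians of -0.45, -0.18 and -0.41 and 0 calls in each. At an unadjusted p under 0.05 that list gave 0 higher in each comparison and 2, 0 and 3 of 12 lower in MT mice, at 12 and at 19 months, against 6.18%, 4.57% and 5.3% of all tested that were lower.

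Of the 40 genes, 12 had further probe sets, 17 in all, of which 16 were tested and 0 called in the 3 comparisons. The probe sets that read Gpt, Cbs and Uroc1 have a suffix that Affymetrix uses where probes may match transcripts of more than 1 gene, so these signals are less certain.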

How the data were processed

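The authors hybridised liver RNA to 1-colour Affymetrix arrays and deposited MAS5 signal intensities on a linear scale, scaled so that the trimmed mean was 500.0 on all 8 arrays. No MAS5 version was found in the labels, and detection calls were not used here. Of 45101 probe sets, 64 controls were left out. Of the others 34945 carried 1 symbol, 932 several and 9160 none listed. Entrez IDs of 34741 matched a RefSeq gene table, which changed 0 symbols. Groups came from the sample labels.

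Signals under 1 were set to 1 and taken to log2. The upper 50% of probe sets by mean log2 signal (22519) were fitted with limma 3.58.1 in R 4.3.3 (eBayes with a variance trend), all 4 groups in 1 fit (degrees of freedom: 4 residual, 5.37 prior). Tests were two-sided, with Benjamini-Hochberg adjustment over all tested probe sets, and the fit was tested on simulated data. Exact permutation of 2 against 2 arrays was left out, since its smallest p is 0.333. Arrays of 2 groups were called separated where both of one lay beyond both of the other. The number of arrays limits the precision, and array medians lay between 74.5 and 82.8.

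The genes and lists were chosen with earlier results of these data known. Full statistics are given for genes called in any comparison or by the F test and for the 5 of smallest unadjusted p in each comparison, and at most 5 related genes per comparison are named. Promoters were RefSeq windows of build GRCm38.p6. Alternatives covered normalization, the log offset, the filter, the variance trend, the threshold, a replicate block, the groups in the fit, the methods' t-test, the probe set per gene and leaving out each array. The other 3 pairs of groups and the median of bright probe sets were added after seeing the data. Tables and plots were made with pandas 2.3.3, numpy 2.4.6 and matplotlib 3.10.9 in Python 3.11.15.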

Additional observations from a re-analysis of the deposited data

How the results depend on the processing

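Counts of probe sets called moved with the fit. In MT mice the 116 calls became 177 in the upper 25% of mean signal, 9 without the variance trend, 413 at an adjusted p under 0.10, and 890 by the methods' t-test (0 after Benjamini-Hochberg), with 13 to 255 when single arrays were left out. At 12 months the 3 calls became 0 without the trend, 5 at an adjusted p under 0.10, 12 with only the 2 groups compared, 502 by the methods' t-test (0 after adjustment) and 0 to 20 without single arrays. At 19 months the 8 calls became 3 in the upper 25%, 1 without the trend, 57 at an adjusted p under 0.10, 135 with only the 2 groups, 750 by the methods' t-test (0 after adjustment) and 2 to 30 without single arrays. The F test's 97 calls became 3 without the trend, 315 at an adjusted p under 0.10 and 12 to 195 without single arrays.

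Among the 40 genes, calls changed for Csad and Got1 alone. With only the 2 groups compared, the total over all probe sets is given above for 12 and 19 months alone. The call in MT mice under that setting thus has no share beside it. In MT mice 1 (Csad, adjusted p = 0.0492) was called with only the 2 groups compared and 1 by the methods' t-test, and 0 to 0 without single arrays. At 12 months the count was 0 in every fit. At 19 months 1 (Csad) was called at an adjusted p under 0.10, 2 (Csad and Got1) with only the 2 groups and 2 by the methods' t-test, and 0 to 1 without single arrays (Csad without either 12-month array). The F test called 0 without the trend and 0 to 2 without single arrays, with Got1 added without the second 12-month array. Csad at 12 months turned to -0.15 without the second 12-month array and was 0.93 without the first. The median log2 difference without single arrays was -0.156 to 0.0619 in MT mice, -0.0608 to 0.038 at 12 months and -0.278 to -0.0991 at 19 months. The cause of these changes was not tested.

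Replicate numbers were not taken to pair the arrays: over all tested probe sets, deviations of same-numbered arrays correlated at -0.0331 to 0.141. With a replicate block, 25 probe sets and 1 of the 40 genes (Csad, adjusted p = 0.0342) were called at 19 months. Bright signals and 2 arrays a group limit what small differences can show.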
